A study of Mus musculus with 2 samples.

Results

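The 9 genes described here (Rec8, Hmga2, Bpifb5, Prtn3, Muc4, Lgals7, Nfil3, Ckb and Mtus2), of 32285 gene IDs measured, were among those with the lowest RNA in epithelial-like cells of a Dll1+ mouse mammary tumor relative to a Dll1- tumor. They were chosen by that ratio. The choice was made among genes that reached 20 CPM (UMIs of a gene scaled to the total of the cell class) in either library. Mitochondrial, ribosomal protein and Y-linked genes, Xist, Tsix and gene models with only a Gm, Rik or accession-type name were left out. Genes over 5 times higher in another class, in the library where the gene was higher in epithelial-like cells, were left out too. Among the rest, the genes described here held 9 of the 12 lowest ratios. The other places went to the milk protein genes Csn2 and Csn1s1 and to Pmaip1. Mtus2, the member nearest the limit, had a log2 ratio of -2.41, Pmaip1 stood in the last place at -2.41, and Glycam1, the first gene outside, had -2.34. The ratio in epithelial-like cells is therefore a description of how the genes were picked.

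Both libraries came from untreated mouse mammary tumors, with 1 tumor and 1 library for each group. Live cells that lacked CD45, a surface protein of leukocytes, were sorted and captured in droplets with the 10x v3 chemistry. One tumor is labelled Dll1+ and the other Dll1-, after the membrane ligand of Notch receptors. The strain, the age, the driver of the tumors and how each came to be Dll1+ or Dll1- are not stated in the labels. With 1 library per group there is no replicate check and no test, and the 95% intervals below take in counting error alone.

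The Dll1+ library held 117230907 unique molecular identifiers (UMIs, which count captured RNA molecules) and the Dll1- library 135960457. After filtering there were 9685 Dll1+ cells, with a median of 7882 UMIs and 5.39% mitochondrial UMIs, and 10132 Dll1- cells, with a median of 9904 UMIs and 3.54%. The libraries shared 109 barcodes, and 57 Dll1+ and 61 Dll1- cells that were kept carried one. Epithelial-like cells numbered 8054 in the Dll1+ and 8713 in the Dll1- library, and all 10 epithelial markers were detected in them in both. These cells stood largely apart by library: 6481 of the 8054 Dll1+ cells lay outside the sub-states that held 50 or more cells of both libraries. Dll1 stood at 54.2 CPM in Dll1+ and 3.97 CPM in Dll1- epithelial-like cells, in the direction of the labels. In Krt5-led cells, described below, Dll1 had 88.8 CPM in Dll1+ and 84.3 CPM in Dll1- cells. In endothelial-like cells it had 29.8 CPM in Dll1+ and 24.4 CPM in Dll1- cells. The counting intervals of both log2 ratios included 0. Fibroblast-like cells had 16 Dll1 UMIs in Dll1+ and 0 in Dll1-, and pericyte-like cells 15 and 2, too few to count as measured. Dll1+ and Dll1- thus name the library and not the Dll1 level of a cell.

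As background, the 9 genes do not belong to a single pathway. In the mammary gland, luminal cells make milk proteins and membrane mucins, and basal cells lie beneath them. Notch receptors, once bound by a ligand such as Dll1 on a neighbouring cell, release an intracellular part that acts through the DNA-binding protein RBPJ. Rec8 encodes a cohesin subunit of meiosis, and Hmga2 an architectural chromatin protein of embryonic and tumor cells. Nfil3 is a basic leucine zipper repressor that shares DNA sites with the circadian factors Dbp, Tef and Hlf. Muc4 is a membrane mucin that binds the receptor ErbB2, Lgals7 is galectin-7, a sugar-binding protein of stratified epithelia, and Bpifb5 belongs to a family of secreted proteins with a BPI fold. Prtn3 is proteinase 3, a serine protease known from neutrophil granules, Ckb is the brain-type creatine kinase, and Mtus2 is a microtubule-associated protein.

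The genes are scattered over the genome. On mm10, with positions from GENCODE M21, Rec8 lies at chr14:55618037-55625395, Bpifb5 at chr2:154223742-154240902, Nfil3 at chr13:52967209-52981073 and Ckb at chr12:111669361-111672338. Hmga2 at chr10:120361275-120476469 and Prtn3 at chr10:79874476-79883174 share a chromosome. Muc4 lies at chr16:32735886-32782391, Lgals7 at chr7:28863853-28866284 and Mtus2 at chr5:147957320-148316065. Prtn3, Muc4, Hmga2 and Lgals7 each overlap another measured gene on the opposite strand, and the labels do not say whether the counting used strand. Reads of such a pair cannot be told apart without it. Plppr3, the partner of Prtn3, had 8885 UMIs in epithelial-like cells over both libraries and Muc20, the partner of Muc4, had 4945. The first measured partner of Hmga2 had 9 UMIs and that of Lgals7 had 20.

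The promoters of the 9 genes, taken from RefSeq (GRCm38.p6, 250 bases before to 50 after each start), differed in composition. All 9 genes matched, with a pair of start sites for Mtus2. GC content ran from 43.7% in Muc4, with 1 CpG, to 81.7% in Nfil3, with 54 CpGs, against a median of 52.7% over 32851 promoters of the same length. The motifs searched, on both strands, were TTCNNNGAA for STAT factors, GTGGGAA for RBPJ, TTATGTAA for Nfil3 and its relatives, TATAAA for the TATA box, CACGTG for the E-box and TGACGTCA for CRE. No motif was found in more than 2 of the 9 genes. The windows with a match are shown with the matching letters in capitals, since they are the only places in these promoters where the searched letters occur.
Bpifb5: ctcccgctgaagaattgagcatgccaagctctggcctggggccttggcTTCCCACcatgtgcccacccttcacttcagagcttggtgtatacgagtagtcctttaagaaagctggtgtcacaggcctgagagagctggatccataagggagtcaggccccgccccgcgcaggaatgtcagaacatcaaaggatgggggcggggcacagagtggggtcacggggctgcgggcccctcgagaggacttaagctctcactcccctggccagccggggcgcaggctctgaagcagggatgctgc
Muc4: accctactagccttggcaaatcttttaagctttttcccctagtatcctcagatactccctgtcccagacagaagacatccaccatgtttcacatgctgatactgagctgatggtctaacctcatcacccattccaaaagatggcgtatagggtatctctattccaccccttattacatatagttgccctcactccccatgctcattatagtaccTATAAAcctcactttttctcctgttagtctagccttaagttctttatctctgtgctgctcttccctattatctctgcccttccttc
Ckb: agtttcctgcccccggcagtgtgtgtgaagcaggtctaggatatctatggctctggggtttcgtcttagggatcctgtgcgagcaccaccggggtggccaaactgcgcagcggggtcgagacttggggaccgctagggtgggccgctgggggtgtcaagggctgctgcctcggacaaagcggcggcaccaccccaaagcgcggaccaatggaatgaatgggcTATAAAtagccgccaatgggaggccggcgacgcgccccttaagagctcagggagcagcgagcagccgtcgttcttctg
Mtus2: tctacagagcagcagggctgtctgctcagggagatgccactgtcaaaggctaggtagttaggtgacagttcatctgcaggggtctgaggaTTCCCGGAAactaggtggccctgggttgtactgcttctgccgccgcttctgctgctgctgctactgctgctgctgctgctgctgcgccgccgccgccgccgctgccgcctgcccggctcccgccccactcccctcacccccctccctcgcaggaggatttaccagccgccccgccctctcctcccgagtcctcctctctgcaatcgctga
The Bpifb5 window (chr2:154223492-154223791, plus strand) holds the RBPJ letters in reverse orientation, at position -202 from the start. A match occurred in 6.38% of all promoters. The Muc4 window (chr16:32735636-32735935, plus strand) and the Ckb window (chr12:111672289-111672588, minus strand) hold TATAAA at -36 and -28. The second Mtus2 window (chr5:148264967-148265266, plus strand) holds the STAT letters at -160. At any position of the window and on either strand, TATAAA occurred in 13.6% of all promoters and the STAT letters in 8.30%. The Nfil3, E-box and CRE letters were in none of the members' windows and in 0.938%, 7.15% and 1.79% of all promoters. A match is a run of letters and not a measured binding site.

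In epithelial-like cells all 9 genes were at least 2-fold lower in the Dll1+ library, as the choice required, against 2.77% of the 6255 genes that reached 20 CPM in either library. Their median log2 ratio was -2.47, against 0.20 over all genes with at least 30 UMIs, where log2 ratios are Dll1+ over Dll1- of CPM plus 1. TMM scaling, which centres the bulk of genes, lowered ratios without the added 1 by a further 0.26. With the 1 added the shift was smaller at low CPM: Rec8 stood at -4.71, against -4.55, and Mtus2 at -2.63, against -2.41.

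The order of the genes depended on the added constant. With 1 CPM added Rec8 had the lowest ratio and Hmga2 the next, whereas with 10 CPM added Lgals7 (-2.42), Prtn3 (-2.26) and Muc4 (-2.03) lay below Rec8 (-2.02), and Hmga2 stood at -1.42. Rec8 had 34 UMIs (0.416 CPM) in Dll1+ cells, against 3396 UMIs (32.2 CPM) in Dll1- cells, a log2 ratio of -4.55. A Rec8 UMI was found in 25 of 8054 Dll1+ cells and in 1935 of 8713 Dll1- cells, so the gene was nearly undetected in the Dll1+ library. Hmga2 stood at 1.99 CPM in Dll1+ and 22.2 CPM in Dll1- cells, a log2 ratio of -2.95.

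The remaining 7 genes had closely similar log2 ratios, between -2.59 and -2.41. Lgals7 had 329 CPM in Dll1+ and 1808 CPM in Dll1- cells. Prtn3 had 38.5 CPM in Dll1+ and 222 CPM in Dll1- cells, and Muc4 had 18.3 CPM in Dll1+ and 106 CPM in Dll1- cells. The galectin, the protease and the mucin were thus low but readily counted in the Dll1+ library. Bpifb5 had 11.4 CPM in Dll1+ and 73.6 CPM in Dll1- cells. Ckb had 12.1 CPM in Dll1+ and 69.2 CPM in Dll1- cells. The transcriptional repressor gene Nfil3 and the microtubule gene Mtus2 were low in the Dll1+ library as well. Nfil3 had 4.80 CPM in Dll1+ and 30.6 CPM in Dll1- cells, and Mtus2 had 3.13 CPM in Dll1+ and 20.98 CPM in Dll1- cells.

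**Figure D1:**
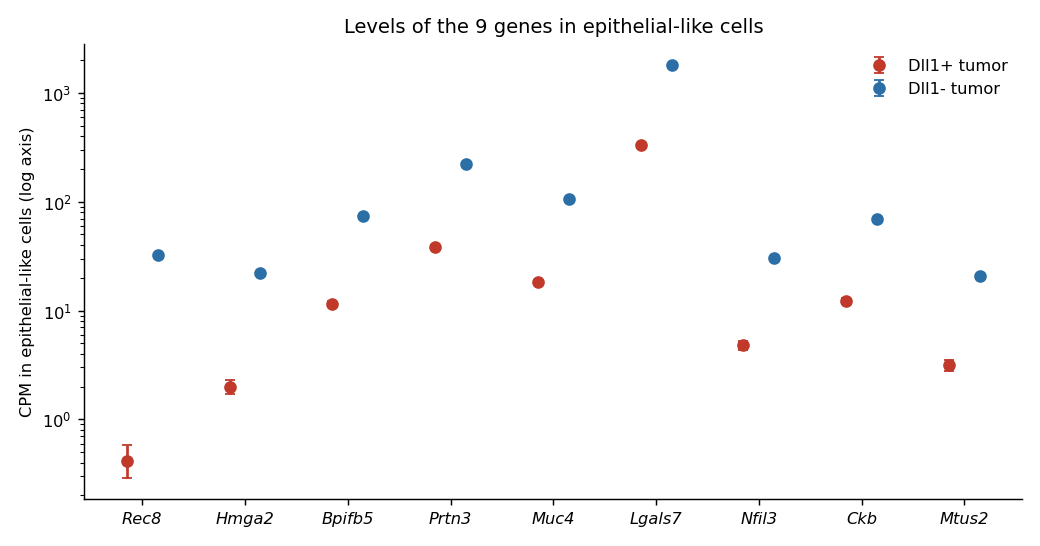
CPM (log axis) of each gene in epithelial-like cells of the Dll1+ (red, left) and Dll1- (blue, right) libraries, with exact 95% Poisson intervals that cover counting error only. Every red point lies below its blue partner, from 0.416 against 32.2 CPM for Rec8 to 329 against 1808 CPM for Lgals7.

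The difference was one of how many cells held the RNA as well as of the sum. The shares come from the cells and counts on which the genes were chosen, so they too are a description. With each cell thinned to 2000 UMIs, and 601 Dll1+ and 201 Dll1- shallower cells left out, at least 1 of the 9 genes was detected in 25.6% of Dll1+ cells (1906 of 7453) and in 96.5% of Dll1- cells (8215 of 8512). At least 3 of them were detected in 1.31% of Dll1+ and 18.1% of Dll1- cells. Most of the first share was Lgals7, galectin-7: it was detected in 21.5% of thinned Dll1+ cells and 91.4% of thinned Dll1- cells, and before thinning in 34.1% of Dll1+ and 98.6% of Dll1- cells. Endothelial-like cells, taken as a class that should lack Lgals7 and Prtn3, held an Lgals7 UMI in 3.64% of thinned Dll1+ and 9.25% of thinned Dll1- cells, and before thinning in 7.06% of Dll1+ and 16.8% of Dll1- cells. Median depths were 8009 UMIs in Dll1+ and 10641 in Dll1- epithelial-like cells, and 4698 in Dll1+ and 3730 in Dll1- endothelial-like cells. Prtn3 was detected in 4.87% of thinned Dll1+ and 27.8% of thinned Dll1- epithelial-like cells (12.9% of Dll1+ and 62.2% of Dll1- before thinning), against 0.392% of Dll1+ and 1.79% of Dll1- endothelial-like cells before thinning. For Rec8 the thinned share was 0.0403% in Dll1+ and 5.64% in Dll1- epithelial-like cells.

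**Figure D2:**
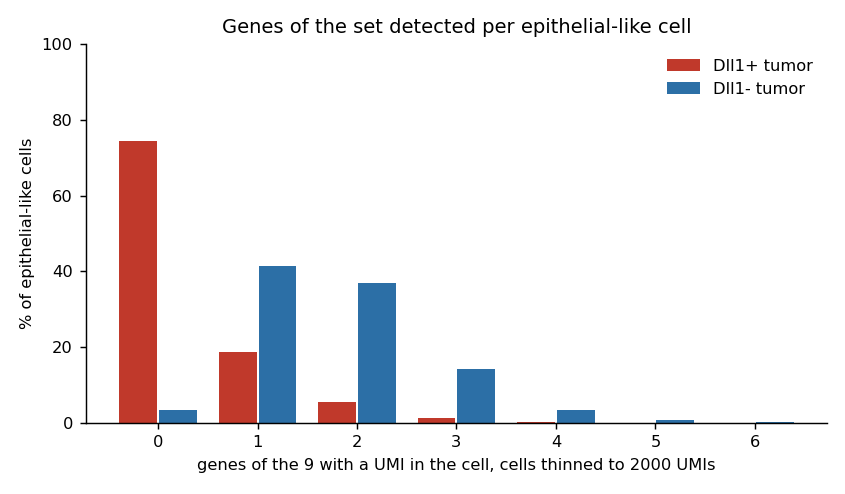
Percent of epithelial-like cells (y) in which 0 to 6 of the 9 genes were detected (x), after thinning each cell to 2000 UMIs, in the Dll1+ (red, left) and Dll1- (blue, right) libraries. In Dll1+ cells 74.4% held none of the 9, against 3.49% of Dll1- cells.

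The RNA that remained in the Dll1+ library was gathered in fewer cells, although such shares also rise as fewer UMIs are counted. The 10% of Dll1+ cells with the most Lgals7 held 77.3% of its UMIs, against 26.1% for the same fraction of Dll1- cells. For Prtn3 the shares were 92.6% in Dll1+ and 46.2% in Dll1- cells. In thinned Dll1+ cells each pair of Lgals7, Prtn3 and Muc4 was found together more often than the product of its shares. The shares were taken over all epithelial-like cells, so differences in level between sub-states, given below, enter them. Lgals7 was detected in 72.2% of Dll1+ cells with Prtn3 and in 18.9% of those without it, whereas in Dll1- cells it was detected in 91.2% of those with Prtn3 and 91.4% of those without. Prtn3 and Muc4 were found in the same cell 4.34 times as often as the product of their shares in the Dll1+ library (48 cells) and 1.12 times as often in the Dll1- library (454 cells). Nfil3 and Ckb shared 1 Dll1+ cell, 1.16 times the product, and 64 Dll1- cells, 1.31 times the product. Other Dll1- pairs lay below the product, such as Hmga2 and Mtus2 at 0.47 times (7 cells) and Muc4 and Nfil3 at 0.77 times (63 cells). Rec8 was detected in only 3 thinned Dll1+ cells, too few to read its pairs there.

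Epithelial-like cells fell into sub-states that are called here by a leading gene. Rec8 and Muc4 were themselves among the leading genes of the Lalba-led sub-state, so levels by sub-state are a description. The Lalba-led sub-state, with the milk protein genes Lalba and Wap, held 1254 Dll1+ and 5021 Dll1- cells. The Fermt1-led sub-state held 200 Dll1+ and 3014 Dll1- cells, and the Nusap1-led sub-state, led by genes of mitosis, 119 Dll1+ and 538 Dll1- cells. Each of these had 50 or more cells from both libraries, and they are called shared. They took in 1573 of 8054 Dll1+ and 8573 of 8713 Dll1- cells. The Dll1+ library was mostly elsewhere: 5156 Dll1+ and 4 Dll1- cells were in the Prpmp5-led sub-state, 1152 Dll1+ and 0 Dll1- cells in the Ptn-led, and 160 Dll1+ and 4 Dll1- cells in the Spp1-led. The Sprr1a-led sub-state held 13 Dll1+ and 132 Dll1- cells.

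Each of the 9 genes was lower in the 6481 Dll1+ cells outside the shared sub-states than in the 1573 Dll1+ cells inside them. Lgals7 stood at 49.2 CPM outside and 1162 CPM inside, Prtn3 at 7.33 CPM outside and 131 CPM inside, and Muc4 at 2.55 CPM outside and 65.0 CPM inside. Hmga2 stood at 0.294 CPM outside and 7.05 CPM inside, Bpifb5 at 4.10 CPM outside and 33.1 CPM inside, and Nfil3 at 1.83 CPM outside and 13.6 CPM inside. Ckb differed least, at 8.83 CPM outside and 22.0 CPM inside. Mtus2 stood at 1.13 CPM outside and 9.09 CPM inside, and Rec8 at 0.0818 CPM outside and 1.41 CPM inside. Dll1 ran the other way, at 67.8 CPM outside and 13.8 CPM inside.

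Within the shared sub-states the genes were still lower in the Dll1+ library, but by less. All 9 were lower in all 3 sub-states, with counting intervals of the log2 ratio below 0 in each. With the sub-states weighted alike, 5 of the 9 were at least 2-fold lower, against 0.689% of 5952 genes, a share that the choice of the 9 genes on these same cells does not leave independent. Those 5 were Rec8 (0.859 CPM in Dll1+ and 21.2 CPM in Dll1- cells, log2 ratio -3.58), Bpifb5 (26.6 CPM in Dll1+ and 71.7 CPM in Dll1- cells, -1.40), Ckb (26.5 CPM in Dll1+ and 63.2 CPM in Dll1- cells, -1.22), Prtn3 (93.0 CPM in Dll1+ and 213 CPM in Dll1- cells, -1.19) and Mtus2 (9.24 CPM in Dll1+ and 20.4 CPM in Dll1- cells, -1.06). The others had log2 ratios of -0.83 for Muc4, -0.79 for Nfil3, -0.61 for Hmga2 and -0.56 for Lgals7. The genes thus spread from -3.58 to -0.56 within like sub-states.

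The genes differed in which sub-state held them. In the Dll1- library Rec8 was highest in Lalba-led cells, at 48.5 CPM. It had 16.1 CPM in Dll1- Sprr1a-led cells (17 UMIs), 8.32 CPM in Nusap1-led and 6.65 CPM in Fermt1-led cells. Dll1+ Lalba-led cells had 1.69 CPM of Rec8 (27 UMIs). Dll1+ Fermt1-led cells had 0.509 CPM (1 UMI) and Dll1+ Nusap1-led cells 0.377 CPM (1 UMI), with counting intervals that overlapped that of Lalba-led cells. Muc4 was also highest in Lalba-led cells, with 74.4 CPM in Dll1+ and 139 CPM in Dll1- cells. Hmga2 was instead highest in Fermt1-led cells, with 39.2 CPM in Dll1+ and 49.7 CPM in Dll1- cells, a log2 ratio of -0.34 that was the smallest of any gene of the set in a shared sub-state. In Lalba-led cells Hmga2 had 3.26 CPM in Dll1+ and 10.8 CPM in Dll1- cells. Lgals7 was highest in Fermt1-led cells too, with 1710 CPM in Dll1+ and 2563 CPM in Dll1- cells. The ratio of Bpifb5 varied most between the shared sub-states. It had 1.53 CPM in Dll1+ and 35.6 CPM in Dll1- Fermt1-led cells, but 43.0 CPM in Dll1+ and 90.7 CPM in Dll1- Nusap1-led cells. In Dll1+ Spp1-led cells, a small sub-state of 160 cells, Prtn3 stood at 134 CPM and Ckb at 43.0 CPM, within the range of the shared sub-states of that library for Prtn3 and above it for Ckb, whereas Muc4 stood at 6.51 CPM.

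**Figure D3:**
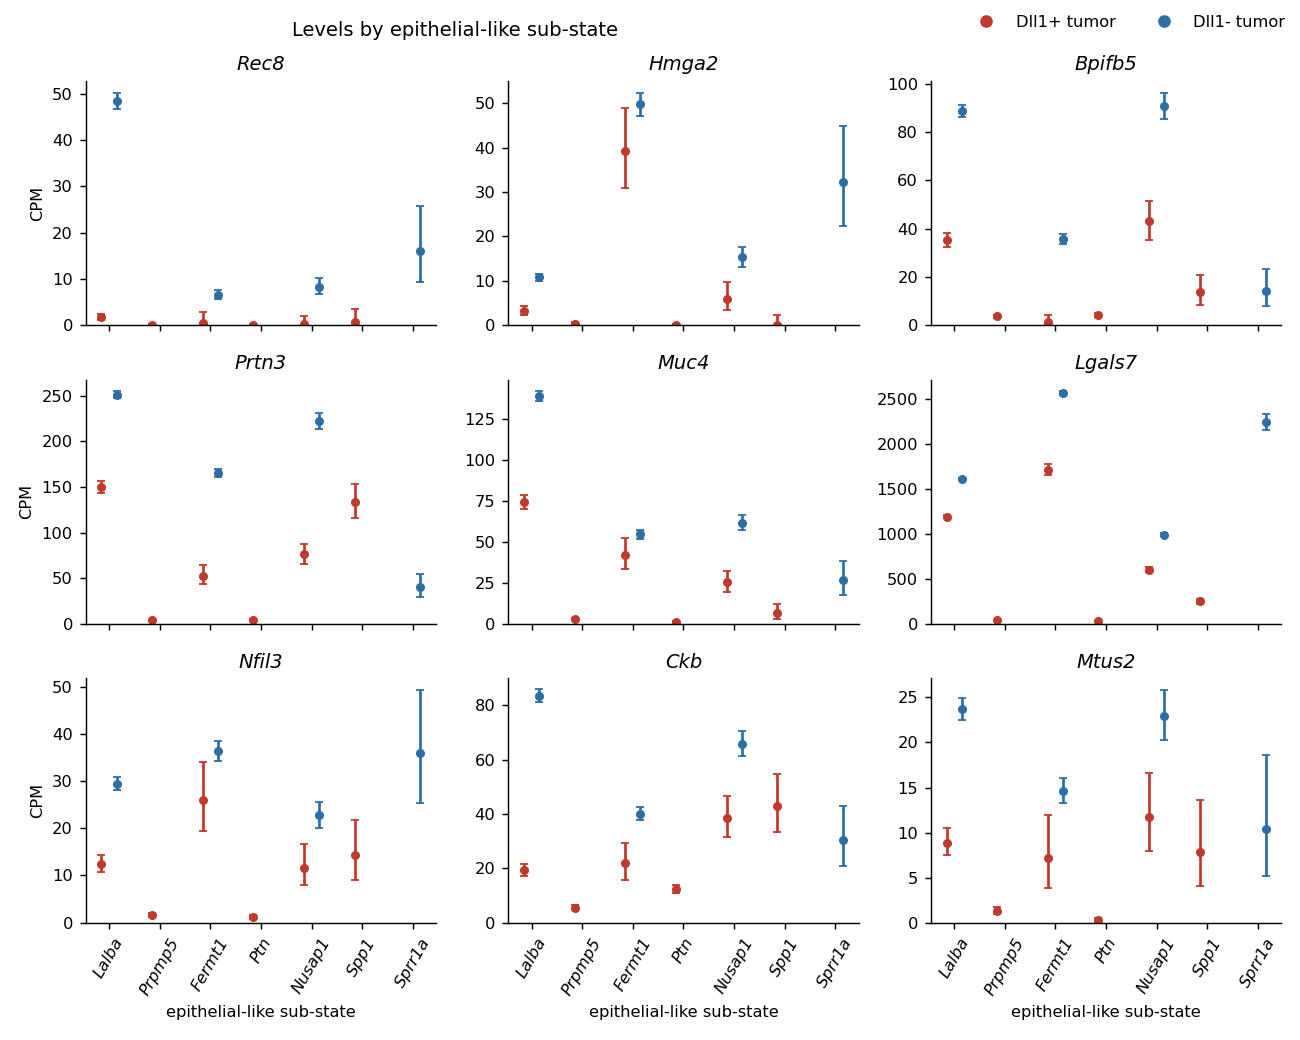
CPM of each gene (y) by epithelial-like sub-state (x, named by a leading gene) in the Dll1+ (red, left) and Dll1- (blue, right) libraries, for sub-states with at least 50 cells of that library, with exact 95% Poisson intervals. In the Lalba-led, Fermt1-led and Nusap1-led sub-states, which both libraries share, the Dll1+ point lies lower for every gene, and the Prpmp5-led and Ptn-led Dll1+ cells lie near 0 for most genes.

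The other cell classes entered the choice of the genes only through the limit of 5 times a level in another class. Over the 4 other named classes there were 36 pairs of a gene and a class, of which 17 had at least 30 UMIs over both libraries. Of these, 5 were at least 2-fold lower in the Dll1+ library, 12 lay between and 0 were at least 2-fold higher. Among all genes measured in the same way, the share at least 2-fold lower was 3.1% in Krt5-led cells, 1.26% in fibroblast-like, 0.852% in pericyte-like and 1.02% in endothelial-like cells. The shares at least 2-fold higher were 6.26%, 3.2%, 6.4% and 2.22%. The 5 pairs were Muc4 and Mtus2 in Krt5-led cells, Muc4 and Lgals7 in fibroblast-like cells and Lgals7 in endothelial-like cells. The count depended on the processing, which in part also changed the pairs that entered. With a pseudocount of 10 CPM it was 2 of the same 17 pairs. With no filter on low values it was 16 of all 36 pairs. It was 22 with doublets left in and 3 with thinned cells, where the number of measured pairs was not counted and need not be 17. Under each of these 0 pairs were at least 2-fold higher. Shares over all genes were not counted for these settings.

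In Krt5-led cells, 332 Dll1+ and 315 Dll1- cells with basal markers that are led by Krt5, Sostdc1 and Col17a1 and are given no cell type here, 6 genes were measured. Of basal markers, 8 of 8 were detected in Dll1+ and 5 of 8 in Dll1- cells. Muc4 had 2.54 CPM in Dll1+ and 8.23 CPM in Dll1- cells (log2 ratio -1.38), and Mtus2 had 5.76 CPM in Dll1+ and 16.1 CPM in Dll1- cells (-1.34). Lgals7 was less than 2-fold lower, with 3841 CPM in Dll1+ and 6195 CPM in Dll1- cells (-0.69), and so was Nfil3, with 58.3 CPM in Dll1+ and 79.7 CPM in Dll1- cells (-0.44). The protease gene Prtn3 and the creatine kinase gene Ckb went the other way. Prtn3 had 217 CPM in Dll1+ and 158 CPM in Dll1- cells, a log2 ratio of 0.45 (interval 0.30 to 0.62), and Ckb had 244 CPM in Dll1+ and 154 CPM in Dll1- cells, a log2 ratio of 0.67 (0.51 to 0.83). With TMM scaling these ratios were 0.33 for Prtn3 and 0.54 for Ckb. Rec8 had 0 UMIs in Dll1+ Krt5-led cells, where 3 UMIs correspond to 0.692 CPM, and 13 UMIs in Dll1- cells.

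The makeup of the Krt5-led cells differed between the libraries. An Fgg-led sub-cluster, which also expressed the smooth muscle gene Cnn1, held 129 Dll1+ and 5 Dll1- cells and had 405 CPM of Ckb in its Dll1+ cells. Without it Ckb stood at 153 CPM in Dll1+ and 153 CPM in Dll1- cells, and Prtn3 at 171 CPM in Dll1+ and 155 CPM in Dll1- cells, a log2 ratio of 0.14 (-0.05 to 0.33). The higher Ckb in Dll1+ Krt5-led cells thus rested on that sub-cluster. Muc4 was then less than 2-fold lower, at 3.98 CPM in Dll1+ and 8.32 CPM in Dll1- cells, a log2 ratio of -0.90 (-2.23 to 0.01), so 1 of the 5 pairs given above also depended on it. Most Muc4 UMIs of the class, 9 of 11 in Dll1+ and 14 of 25 in Dll1- cells, lay in an Ltf-led sub-cluster of 26 Dll1+ and 6 Dll1- cells that also carries Lalba. Within the Hp-led sub-cluster (52 Dll1+ and 125 Dll1- cells) Prtn3 was nonetheless higher, at 469 CPM in Dll1+ and 293 CPM in Dll1- cells, while Ckb was level at 210 CPM in Dll1+ and 225 CPM in Dll1- cells. In the Fbn2-led sub-cluster Prtn3 had 167 CPM in Dll1+ and 102 CPM in Dll1- cells. Lgals7 was highest where keratinocyte genes lead, in the Cst6-led sub-cluster, which carries Krt1 and Calm4, with 15795 CPM in Dll1+ and 13180 CPM in Dll1- cells, and the direction there was opposite to that in the Hp-led sub-cluster, with 1393 CPM in Dll1+ and 2621 CPM in Dll1- cells. The 10 keratinocyte markers summed to 2963 CPM in Dll1+ and 7178 CPM in Dll1- Krt5-led cells, and their part in the Lgals7 ratio of the class was not tested.

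**Figure D4:**
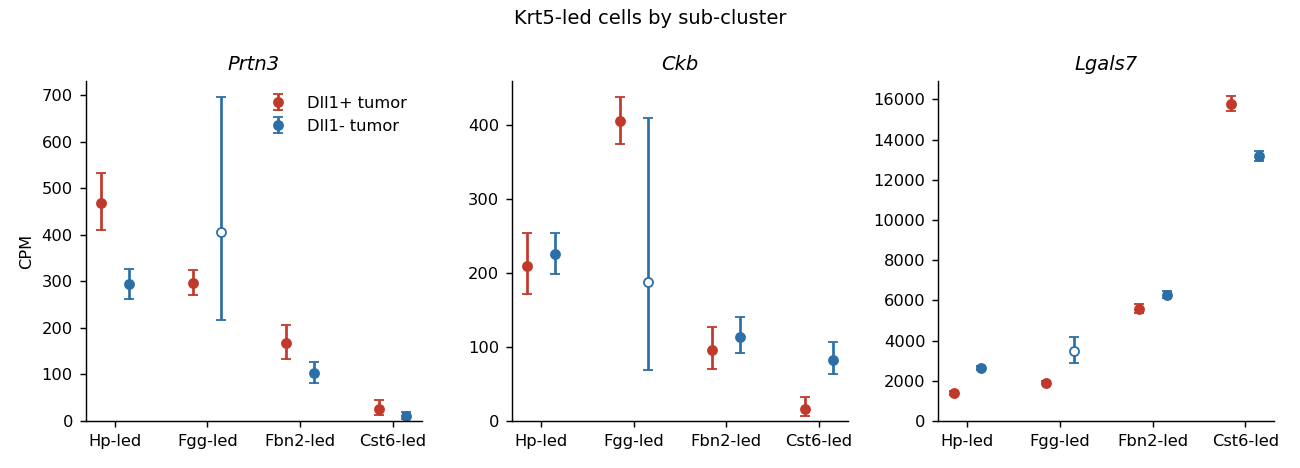
CPM of Prtn3, Ckb and Lgals7 (y) in 4 sub-clusters of the Krt5-led cells (x, named by a leading gene) in the Dll1+ (red, left) and Dll1- (blue, right) libraries, with exact 95% Poisson intervals. Open points stand for groups of under 20 cells, here the 5 Dll1- cells of the Fgg-led sub-cluster, where the Dll1+ cells have 405 CPM of Ckb.

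In stromal cells Nfil3 and Ckb stood apart from the other genes of the set. In fibroblast-like cells Ckb had 125 CPM in Dll1+ and 146 CPM in Dll1- cells, which is 1026% (Dll1+) and 211% (Dll1-) of the level in epithelial-like cells of the same library. Nfil3 had 47.7 CPM in Dll1+ and 62.5 CPM in Dll1- fibroblast-like cells, 994% (Dll1+) and 204% (Dll1-) of the epithelial level. Both were less than 2-fold lower in the Dll1+ library, with log2 ratios of -0.22 for Ckb and -0.38 for Nfil3. In pericyte-like cells the counting intervals of both ratios included 0. Ckb had 46.2 CPM in Dll1+ and 49.97 CPM in Dll1- pericyte-like cells, and Nfil3 had 16.4 CPM in Dll1+ and 16.7 CPM in Dll1- cells. A single cluster held 315 of the 412 Dll1+ and 174 of the 175 Dll1- pericyte-like cells. In endothelial-like cells Nfil3 had 19.1 CPM in Dll1+ and 21.3 CPM in Dll1- cells, again with an interval that included 0. Ckb had 30.5 CPM in Dll1+ and 59.4 CPM in Dll1- endothelial-like cells, a log2 ratio of -0.94 (-1.53 to -0.41).

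Lgals7 and Muc4 in stromal cells stood near the level of epithelial RNA found there. In fibroblast-like cells the 10 epithelial markers had a median of 5.70% of their epithelial level in the Dll1+ library (range 3.73% to 7.46%) and 5.09% in the Dll1- library (3.76% to 6.86%). Lgals7 had 26.0 CPM in Dll1+ and 103 CPM in Dll1- fibroblast-like cells (log2 ratio -1.94), which is 7.90% (Dll1+) and 5.70% (Dll1-) of its epithelial level. Muc4 had 3 UMIs in Dll1+ and 27 UMIs in Dll1- fibroblast-like cells (log2 ratio -1.98, interval -5.23 to -1.17), 4.80% (Dll1+) and 6.04% (Dll1-) of its epithelial level. In endothelial-like cells the markers had medians of 3.91% in the Dll1+ and 2.07% in the Dll1- library. Lgals7 stood at 14.2 CPM in Dll1+ and 51.0 CPM in Dll1- endothelial-like cells (-1.78), 4.30% (Dll1+) and 2.82% (Dll1-) of its epithelial level. The part of epithelial RNA in these ratios was not tested. Lgals7 in pericyte-like cells was an exception in the Dll1+ library. It stood at 88.5 CPM in Dll1+ and 117 CPM in Dll1- cells (-0.39), which is 26.9% (Dll1+) and 6.45% (Dll1-) of its epithelial level, where the markers reached at most 12.5% in Dll1+ and 8.35% in Dll1- cells. Prtn3 in fibroblast-like cells likewise stood at 23.5% of its epithelial level in the Dll1+ library and 5.23% in the Dll1- library, with 9.06 CPM in Dll1+ and 11.6 CPM in Dll1- cells.

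**Figure D5:**
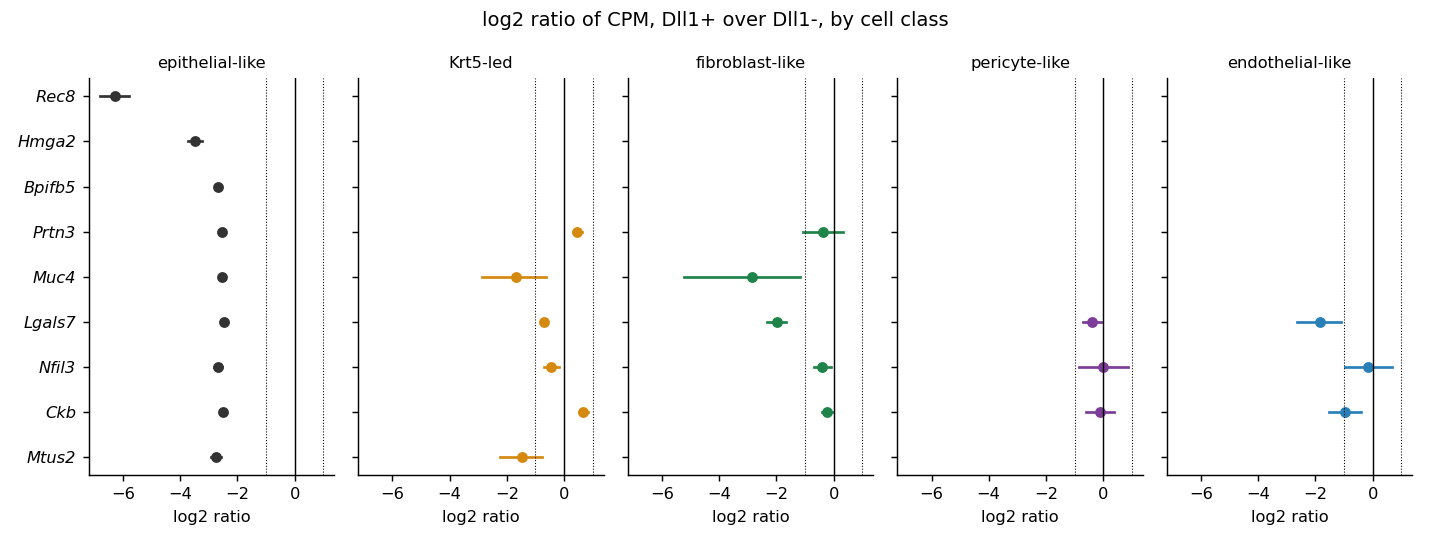
log2 ratio of CPM (x, Dll1+ over Dll1-, without the added 1) of each gene (rows) in 5 cell classes, for pairs with at least 30 UMIs over both libraries, with exact conditional 95% intervals that cover counting error only. Dotted lines mark 2-fold. All 9 genes lie left of the lower line in epithelial-like cells, and in the other classes 5 of 17 pairs do, while Prtn3 and Ckb lie right of 0 in Krt5-led cells.

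Across 18 combinations of class or sub-state and library, each gene was set beside the genes with the most similar profile of log2(CPM + 1). The combinations share libraries and are not independent, so the correlations are descriptive. Rec8 ran closest to the casein gene Csn2 (Pearson r = 0.92), Bpifb5 to the whey acidic protein gene Wap (r = 0.90) and also near Lalba (r = 0.89). Prtn3 ran closest to Plppr3 (r = 0.98), which it overlaps on the other strand, and then to Gata3, a transcription factor of luminal cells (r = 0.91). Lgals7 was nearest to Nfe2l3 (r = 0.95), Hmga2 to Hsd17b2, a steroid dehydrogenase (r = 0.90), and Muc4 to the gene model Gm48614 (r = 0.95) and then to Prom1 (r = 0.90). Some genes of the set were each other's nearest. Nfil3 and Ckb were mutual first neighbours (r = 0.85), and Mtus2 ran closest to Prtn3 (r = 0.90). The milk protein genes Csn2 and Wap were themselves low in Dll1+ epithelial-like cells. Csn2 had 0.954 CPM in Dll1+ and 206 CPM in Dll1- cells, and Wap had 32.0 CPM in Dll1+ and 134 CPM in Dll1- cells. Lalba had 365 CPM in Dll1+ and 977 CPM in Dll1- epithelial-like cells. Its highest level over the 18 combinations was nonetheless in Dll1+ Lalba-led cells, at 1504 CPM.

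The genes next to the 9 on the chromosome were measured in the same way. Of the 18 nearest measured protein-coding neighbours, 0 were at least 2-fold lower in Dll1+ epithelial-like cells, 17 lay between and 1 was at least 2-fold higher, with backgrounds of 2.46% lower and 8.98% higher among 15254 genes with at least 30 UMIs. At that background a count of 0 lower among 18 genes is not a result about the neighbours. With TMM scaling 0 were at least 2-fold lower and 0 higher, and 11 of the 18 had a log2 ratio below 0. Rec8 lies between Irf9, with 78.1 CPM in Dll1+ and 73.4 CPM in Dll1- cells, and Ipo4, which lies 5 bases from it and had 34.6 CPM in Dll1+ and 26.5 CPM in Dll1- cells. The gene that was higher was Msrb3, next to Hmga2, with 7.92 CPM in Dll1+ and 3.03 CPM in Dll1- cells. Elane, the neutrophil elastase gene 3.07 kb from Prtn3, was near the detection limit in both libraries, with 6 UMIs in Dll1+ and 35 UMIs in Dll1- cells. Its ratio without the added 1 had an interval below 0 (-3.72 to -0.91 on the log2 scale). So had that of Bpifb1, next to Bpifb5, with 25 UMIs in Dll1+ and 72 UMIs in Dll1- cells (-1.88 to -0.48). Smbd1, next to Muc4, went the other way, with 71 UMIs in Dll1+ and 0 UMIs in Dll1- cells (lower bound 4.60). The overlapping genes differed in direction. Plppr3, which overlaps Prtn3, was lower, with 20.6 CPM in Dll1+ and 68.3 CPM in Dll1- cells (-1.68). Muc20, which overlaps Muc4, was higher in the Dll1+ library, with 40.3 CPM in Dll1+ and 15.6 CPM in Dll1- cells.

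Functional partners of the 9 genes were examined in epithelial-like cells from lists of related genes, to be read beside the backgrounds of 2.46% lower and 8.98% higher: a count of 0 in lists this short is near them. For Rec8, 13 of 22 listed meiotic and mitotic cohesin genes were measured. Of these, 0 were at least 2-fold lower and 1 was at least 2-fold higher. Their median log2 ratio was 0.32 beside 0.20 for all genes. The listed genes Stag3, Smc1b and Rad21l had under 30 UMIs and were not measured. The meiotic gene Sycp3 had 25 UMIs in Dll1+ and 7 UMIs in Dll1- cells. Its ratio without the added 1 had an interval of 0.95 to 3.66 on the log2 scale. The mitotic cohesin core did not share the near absence of Rec8: Smc1a, a ring subunit, had 101 CPM in Dll1+ and 77.2 CPM in Dll1- cells. The higher gene was Sgo2a, a protector of centromeric cohesin, with 16.0 CPM in Dll1+ and 6.67 CPM in Dll1- cells, and it was under 2-fold with TMM scaling (0.91).

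For Hmga2, 14 HMGA and oncofetal genes were measured, with 2 lower, 0 higher and a median of -0.07. Igf2bp2, an RNA-binding protein gene known as a target of HMGA2, had 0.991 CPM in Dll1+ and 11.6 CPM in Dll1- cells, a log2 ratio of -2.66. Arid3a had 3.45 CPM in Dll1+ and 13.1 CPM in Dll1- cells (-1.66). Igf2bp1 had 5 UMIs in Dll1+ and 106 UMIs in Dll1- cells, but its CPM was too low for its ratio of -0.92 to pass 2-fold with the added 1.

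Relatives of the secreted and surface products came next. Of 6 BPI fold genes, 0 were lower and 1 was higher (Bpifa2, with 99 UMIs in Dll1+ and 2 UMIs in Dll1- cells), with a median of -0.23. Of 8 mucin and ErbB receptor genes, 0 were lower and 2 higher, with a median of 0.12. The membrane mucins Muc1 and Muc15 leaned the same way as Muc4 without reaching 2-fold. Muc1 had 41.6 CPM in Dll1+ and 74.1 CPM in Dll1- cells (-0.82), and Muc15 had 53.4 CPM in Dll1+ and 98.5 CPM in Dll1- cells (-0.87). With TMM scaling both passed it, at -1.07 for Muc1 and -1.13 for Muc15, so that 2 were lower. Besides Muc20, the epidermal growth factor receptor gene Egfr was higher, with 26.4 CPM in Dll1+ and 6.51 CPM in Dll1- cells.

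Of 9 galectin genes, 1 was lower and 1 higher, with a median of 0.26. Lgals3, galectin-3, had 137 CPM in Dll1+ and 320 CPM in Dll1- cells (-1.21), whereas Lgals1, galectin-1, had 295 CPM in Dll1+ and 113 CPM in Dll1- cells (1.38). Of 10 neutrophil granule genes, 1 was lower and 1 higher, with a median of -0.19. Both encode subunits of calprotectin, a calcium-binding protein of neutrophils and inflamed epithelia. S100a8 had 203 CPM in Dll1+ and 567 CPM in Dll1- cells (-1.48), and S100a9 had 13.9 CPM in Dll1+ and 4.73 CPM in Dll1- cells (1.38). The antimicrobial genes Lcn2 and Ltf, which mammary epithelium also expresses, lay between, with 7649 CPM of Lcn2 in Dll1+ and 12788 CPM in Dll1- cells and 1279 CPM of Ltf in Dll1+ and 849 CPM in Dll1- cells. Of 8 neutrophil markers, 0 in Dll1+ and 1 in Dll1- epithelial-like cells were detected in at least 20% of cells. Their summed level was 217 CPM in Dll1+ and 572 CPM in Dll1- cells, nearly all of it the S100a8 given above, and Retnlg was at 0 UMIs in both.

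Of 22 circadian genes, the relatives and partners of Nfil3, 0 were lower and 2 higher, with a median of 0.13. Tef, an activator at the sites that Nfil3 represses, was among the higher genes, with 19.9 CPM in Dll1+ and 8.59 CPM in Dll1- cells. Dbp, of the same family as Tef, had 11.3 CPM in Dll1+ and 5.18 CPM in Dll1- cells, just under 2-fold. With TMM scaling 0 of the 22 were higher. Of 9 creatine pathway genes, 1 was lower and 0 higher, with a median of 0.21. The mitochondrial creatine kinase gene Ckmt1 stood at 85.3 CPM in Dll1+ and 57.9 CPM in Dll1- cells, opposite in direction to Ckb, and the lower gene was Ak4, a mitochondrial adenylate kinase, with 13.0 CPM in Dll1+ and 28.2 CPM in Dll1- cells. Of 19 microtubule genes, 0 were lower and 2 higher, with a median of 0.02. The end-binding protein gene Mapre2 had 30.5 CPM in Dll1+ and 8.41 CPM in Dll1- cells, and Tacc1 had 20.02 CPM in Dll1+ and 8.03 CPM in Dll1- cells, the second of which was under 2-fold with TMM scaling (0.98).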

How the data were processed

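The authors deposited raw UMI counts per gene and barcode for 2 libraries. The file headers name Cell Ranger 4.0.0, and the submitters' processing notes give mm10. Neither states the annotation or the counting options. Of 32285 gene IDs, 32235 (99.8%) were found in GENCODE M21, used for positions. The members and gene lists were chosen with earlier results of these data known.

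Barcodes needed 1000 UMIs, 500 genes and a mitochondrial share of 20% or less. The automatic doublet threshold marked 0 barcodes, so the highest scrublet scores were removed at 0.8% per 1000 barcodes, which took 896 (8.47%) Dll1+ and 989 (8.89%) Dll1- barcodes. Both libraries were clustered together in scanpy 1.11.5 with leidenalg 0.10.2 (2000 variable genes, 30 components, 15 neighbours, resolution 0.6) without integration. A cluster was named when 3 or more markers, and 50% of a list, were each found in 20% of its cells and no other class led among its 10 top genes. Epithelial-like cells were clustered again at 0.4. Clusters were rebuilt here and may differ from the study's own. Cells left unnamed (249 Dll1+ and 51 Dll1-) and macrophage-like cells (28 Dll1+ and 11 Dll1-) were not analysed further.

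Counts were summed per class and library and given as CPM of the class. A log2 ratio sets Dll1+ over Dll1-, with 1 added to each CPM, and its bounds leave out that 1. Intervals are exact at 95% (Poisson for CPM, conditional binomial for ratios, Clopper-Pearson for shares) and hold no amplification or capture error. Genes with 30 or more UMIs in the class, libraries combined, counted as measured. Named genes were the 9 members, per list up to 4 measured genes with the largest absolute ratio and the one with the highest level, the 3 genes most alike, the nearest measured neighbours and Dll1. Overlapping genes and the genes at the limit of the choice were added by position and rank. The alternatives in the closing part changed one setting at a time, and the steps were tested on simulated data. Python 3.11.15, numpy 2.4.6, scipy 1.17.1 and matplotlib 3.10.9 were used.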

Additional observations from a re-analysis of the deposited data

Results flagged for a closer look

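Prtn3 and Ckb had log2 ratios above 0 in Krt5-led cells, of 0.45 for Prtn3 and 0.67 for Ckb, opposite to their ratios of -2.50 and -2.42 in epithelial-like cells of the same libraries. They are given here because the only library of each group moved one way in one class and the other way in the other. Without the Fgg-led sub-cluster, which holds 129 Dll1+ and 5 Dll1- cells, the Krt5-led ratios were 0.14 for Prtn3 and -0.0060 for Ckb. With 1 library per group the difference between the classes was not tested.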

How the results depend on the processing

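The log2 ratio of each of the 9 genes in epithelial-like cells stayed below 0 under all 9 alternatives tried for it. Without the alternative that weights shared sub-states alike, the values ran from -4.75 to -1.24, and with it the value nearest 0 was -0.56 (Lgals7). The number of the 9 genes at least 2-fold lower, with 20 CPM reached in either library, was 9. It was 8 with cells thinned to 2000 UMIs. The count of all genes at least 2-fold lower in epithelial-like cells was 173. It became 302 with TMM factors, 115 with a pseudocount of 10 CPM and 375 with no filter on low values. The count of gene and class pairs at least 2-fold lower outside epithelial-like cells was 5 of 17 measured. It became 2 with a pseudocount of 10 CPM, 22 with doublets left in, 3 with cells thinned to 2000 UMIs and 16 with no filter on low values. The last is out of all 36 pairs, and with doublets or thinning the number of measured pairs was not counted. The cause of the rise with doublets was not tested. The alternative without the Fgg-led sub-cluster of Krt5-led cells, chosen after seeing the data, turned the Ckb log2 ratio there to -0.0060, against 0.67, and left Muc4 at -0.90, against -1.38. No paired analysis was possible because each group has 1 library. Depth limits Rec8, Hmga2, Bpifb5, Muc4 and Mtus2 outside epithelial-like cells, where most pairs had under 30 UMIs, and no measure of the spread between tumors could be had.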
